A study of Mus musculus with 6 samples.

Results

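The semaphorins, ephrins and Slits with their plexin, neuropilin, Eph and Robo receptors were followed in a mouse glioblastoma stem cell line after knockdown of Ggct. Members were taken by gene symbol through the RefSeq transcript named for each array probe (Sema, Efna, Efnb, Slit, Epha, Ephb and Robo with a number, Plxn with a letter, and Nrp1 and Nrp2). The RefSeq table lists 60 such genes, of which 59 had at least 1 probe, 98 probes in all, out of 56605 non-control probes on the array. Sema4b had no matched probe, and the antisense RNA Plxna4os1 was not counted as a plexin. In 48 of the 59 genes a probe exceeded background clearly on 3 or more of the 6 arrays, and these genes were tested among 14151. The remaining 11 genes, with 18 probes, were well above background on 0 arrays.

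The line, labelled 5B, came from mouse glioblastomas induced with the SB transposon and was kept as neurospheres in medium without serum, to which EGF and bFGF were added. Knockdown cells carried a lentiviral shRNA against Ggct, the enzyme gamma-glutamylcyclotransferase of glutathione breakdown, and control cells a lentiviral non-target shRNA. Each group had 3 arrays, and each knockdown array shared the date in its title with 1 control array. All knockdown titles name the same hairpin (mGGCTsh3) and all samples come from 1 line, so off-target effects of the hairpin and the loss of Ggct cannot be told apart. Arrays of a group are not stated to be separate transductions, and p-values cover the spread among these arrays, which may be technical.

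Guidance cues steer the growth cones of axons and the movement of cells. Secreted and membrane semaphorins signal through plexins, often with a neuropilin as co-receptor. Ephrins are bound to the membrane, ephrin-A by a lipid anchor and ephrin-B by a transmembrane segment, and they signal to Eph receptor tyrosine kinases on neighbouring cells and back into their own cell. Slits are secreted and repel cells that carry Robo receptors. In glioma these systems are studied mainly for invasion, vessel growth and the state of stem-like cells.

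Ggct had log2 signals of 0.22, 0.91 and 0.70 in knockdown arrays, against 3.32, 3.72 and 3.70 in control arrays, or 12.7% of control. All signals here are log2 intensities relative to the 75th percentile of the same array, and every log2 fold change is knockdown minus control. Between 54.5% and 56.8% of probes per array were well above background and 0 probes were saturated. Of 9 neural stem and glioma markers, 7 were well above background on all 6 arrays, among them Nes, Sox2 and Prom1, whereas Olig2 was above background on none. Among markers of other cell types, Aif1, Cx3cr1, Ptprc and P2ry12 (microglia), Cldn5 and Vwf (endothelium), Rbfox3 and Stmn2 (neurons), Sox10 (oligodendrocytes), and Rgs5 and Lum (pericytes and fibroblasts) were above background on no array. In bulk RNA, fewer cells of a type and less RNA per cell cannot be told apart. The astrocyte genes S100b and Slc1a3 rose (log2 fold changes of 1.01 and 0.86), as did Mbp (1.01) and Tmem119 (1.17). The summed linear signal of the 5 astrocyte markers was 0.495 to 0.690 in knockdown and 0.291 to 0.432 in control arrays, and that of the 7 microglia markers 11.5 to 14.1 in knockdown and 10.7 to 17.2 in control arrays. The 6 oligodendrocyte markers summed to 0.566 to 0.75 in knockdown and 0.463 to 0.565 in control arrays. Knockdown replicate 1 stood apart on the first principal component (-46.6, against -9.13 and -15.4 in the other knockdown arrays and 15.0 to 30.5 in control arrays). The part of these differences in the guidance gene results was not tested.

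Among the tested members, 4 passed an adjusted p of 0.05 in limma. Sema7a, Efna5 and Efna1, all ligands anchored to the membrane by a lipid, fell in the knockdown, and the receptor gene Robo2 rose. Efna2, Efna3 and Efna4, ligands with the same type of anchor, did not pass (log2 fold changes of 0.05, -0.12 and 0.36). No plexin, neuropilin, Eph receptor, ephrin-B or Slit gene passed, and 44 members did not. The share that passed, 8.33% of 48, lay near that of all genes, of which 7.41% passed (4.57% higher and 2.84% lower), so the number of calls is not a result about guidance genes. An unadjusted p below 0.05 was found in 14 of the 48 members, against 3507 of all 14151 genes (24.8%). In 15 members, or 31.25%, the knockdown and control arrays did not overlap, 6 higher and 9 lower, against 32.4% of all genes. The median log2 fold change was -0.07 over the tested members and 0.02 over all genes. By shared date, 21 of the 48 members were lower in the knockdown array of all 3 pairs, 9 were higher in all 3 and 18 were mixed. Over all 14151 genes, 3164 (22.4%) were lower in all 3 pairs and 3724 (26.3%) higher. The members' counts were not tested against these shares.

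**Figure D1:**
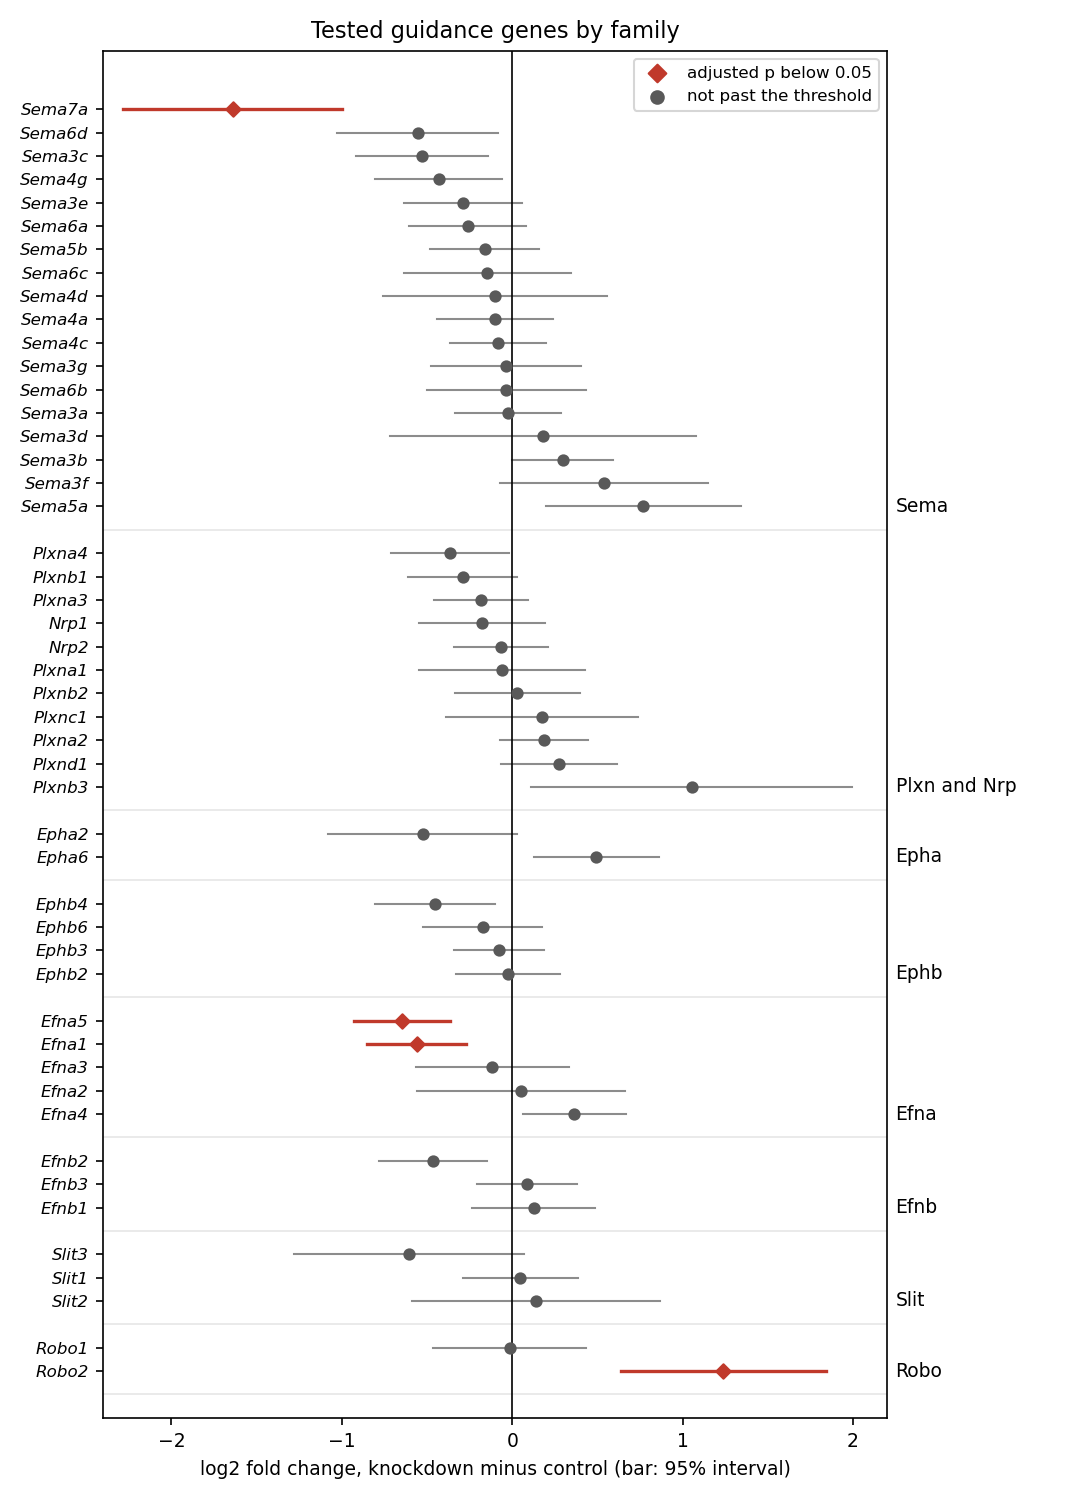
Log2 fold change (knockdown minus control, x axis) of the 48 tested guidance genes, grouped by family and ordered within it. Points are estimates from 3 knockdown and 3 control arrays, bars are 95% intervals, and red diamonds mark the 4 genes past the threshold, with Sema7a furthest below 0 and Robo2 furthest above it.

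The promoters shown are those of the 4 members that passed the threshold. They are RefSeq windows of assembly GRCm38.p6 from 250 bases before to 50 bases after a transcript start, and where a gene had several windows the most upstream start is given. Of the 60 genes, 53 matched at least 1 window. Motifs were searched on both strands for factors that the title of the series names or that act with them: TGANTCA (AP-1, the c-Jun dimer), TGACGTCA (the cAMP response element) and TGGGAA (RBPJ, the DNA-binding partner of Notch). Capitals mark the matches.
Sema7a, chr9:57939862-57940161, strand +: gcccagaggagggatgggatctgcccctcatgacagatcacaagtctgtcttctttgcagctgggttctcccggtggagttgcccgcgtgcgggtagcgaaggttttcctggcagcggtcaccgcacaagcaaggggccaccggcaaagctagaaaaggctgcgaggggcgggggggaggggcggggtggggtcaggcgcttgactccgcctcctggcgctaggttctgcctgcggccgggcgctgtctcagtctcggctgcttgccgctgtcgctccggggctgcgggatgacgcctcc
Efna5, chr17:62881268-62881567, strand -: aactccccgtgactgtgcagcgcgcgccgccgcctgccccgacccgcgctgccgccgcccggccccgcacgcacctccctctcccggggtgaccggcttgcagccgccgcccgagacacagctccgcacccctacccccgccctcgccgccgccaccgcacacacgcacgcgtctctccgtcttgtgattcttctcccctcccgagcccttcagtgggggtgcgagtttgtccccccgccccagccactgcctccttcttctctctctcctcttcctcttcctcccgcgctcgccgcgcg
Efna1, chr3:89280902-89281201, strand -: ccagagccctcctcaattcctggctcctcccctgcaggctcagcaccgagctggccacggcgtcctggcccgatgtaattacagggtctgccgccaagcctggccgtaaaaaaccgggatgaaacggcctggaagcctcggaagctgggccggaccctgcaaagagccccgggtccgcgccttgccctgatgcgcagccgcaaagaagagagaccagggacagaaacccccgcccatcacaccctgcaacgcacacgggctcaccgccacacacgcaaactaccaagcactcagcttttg
Robo2, chr16:75447244-75447543, strand -: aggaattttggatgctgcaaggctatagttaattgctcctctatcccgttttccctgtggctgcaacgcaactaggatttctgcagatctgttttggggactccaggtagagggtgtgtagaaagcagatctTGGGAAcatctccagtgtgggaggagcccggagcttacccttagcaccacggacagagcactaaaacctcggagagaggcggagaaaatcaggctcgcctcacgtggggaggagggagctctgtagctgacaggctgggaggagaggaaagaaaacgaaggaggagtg
A match was found in 1 of these windows, the RBPJ letters upstream of Robo2. TGGGAA was in 25.6% of all 32851 promoter windows and in 15 of 69 windows of guidance genes, TGANTCA in 7.81% and 3 of 69, and TGACGTCA in 1.79% and 1 of 69. The guidance gene windows with TGANTCA were those of Sema4c, Sema4d and Sema6b, and the one with TGACGTCA was that of Epha2, none of which passed. No motif contains the letters of another. The printed windows of Sema7a, Efna5, Efna1 and Robo2 held 23, 38, 20 and 9 CpG dinucleotides, against a median of 7 over all windows.

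Sema7a encodes a semaphorin held at the membrane by a glycosylphosphatidylinositol anchor, which signals through integrin beta1 and plexin C1. Its log2 signal was -0.55, 0.36 and -0.25 in knockdown arrays, against 1.11, 1.90 and 1.46 in control arrays. The groups did not overlap, and the knockdown averaged -0.15 ± 0.47 and the control 1.49 ± 0.40 (SD, n = 3 each). Sema7a fell to 32.1% of control (95% interval 20.5% to 50.1%; log2 fold change -1.64 ± 0.28, standard error; adjusted p in limma = 0.0188). The 3 pairs gave -1.67, -1.54 and -1.71, closer to each other than the arrays of either group. The limma adjusted p was 0.0130 with the shared date as a replicate block. It was 0.0744 without knockdown replicate 3 and 0.0608, 0.0711 and 0.0553 without control replicates 1, 2 and 3.

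The receptors of Sema7a did not pass. Plxnc1, its plexin, had a log2 fold change of 0.18 with a 95% interval from -0.39 to 0.74. Itgb1 had 0.10 ± 0.11 (standard error; adjusted p in limma = 0.632), and Itga1, the alpha chain that pairs with it in the Sema7a receptor of immune cells, had -0.41 ± 0.13 (standard error; adjusted p in limma = 0.0927). Both integrin genes were named after their values were seen.

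**Figure D2:**
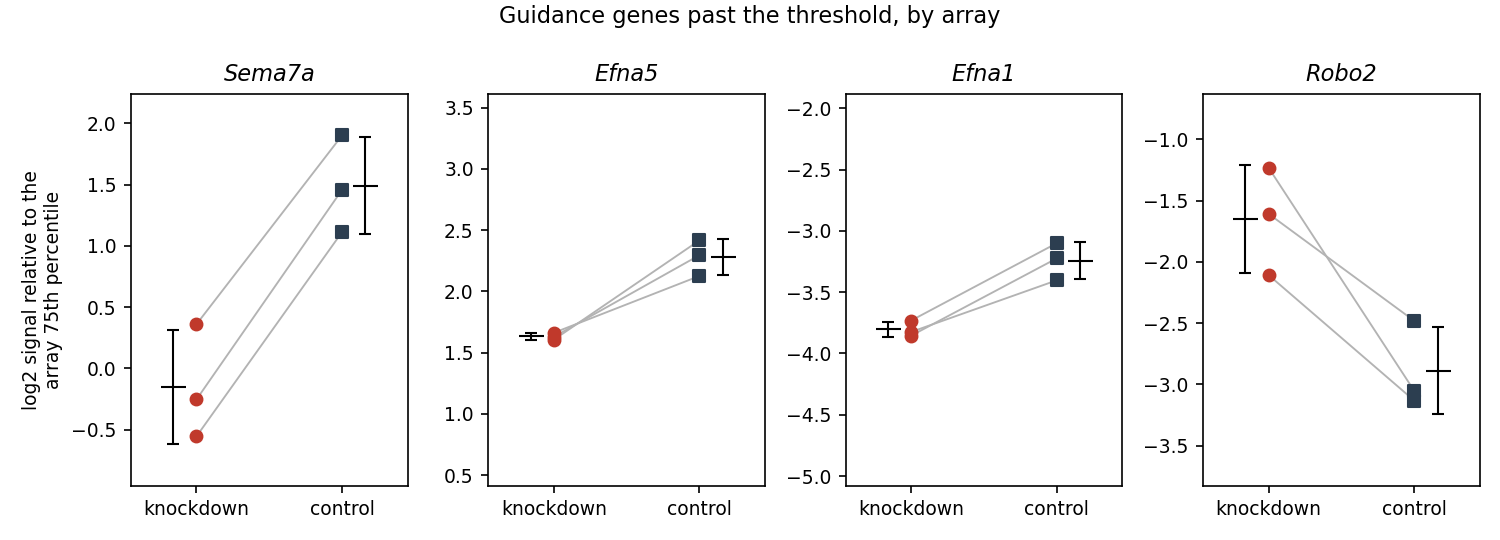
Log2 signal relative to the 75th percentile of the array (y axis, with a span of the same size in each panel) of the 4 guidance genes past the threshold in knockdown (red circles, left) and control arrays (dark squares, right). Grey lines join arrays that share a date, and black marks give the mean and SD of 3 arrays. The groups do not overlap in any panel.

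Of the 18 tested semaphorins, Sema7a was the only one that passed in limma over all genes, or 5.56% against 7.41% of all genes. Among the 18, 4 had values above 0 and 14 below 0, against 7400 and 6751 of all 14151 genes. An unadjusted p below 0.05 was found in 5 of the 18, against 24.8% of all genes. Sema5a, a transmembrane semaphorin with thrombospondin repeats that binds plexin B3, had the largest positive value. Its log2 signal was 5.36, 4.47 and 4.60 in knockdown arrays, against 4.22, 3.78 and 4.11 in control arrays, and the groups did not overlap. The log2 fold change was 0.77 ± 0.25 (standard error; adjusted p in limma = 0.102), and a second probe gave 0.87. The value was 0.50 without knockdown replicate 1.

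Sema6d, a transmembrane semaphorin, had a log2 fold change of -0.55 ± 0.20 (standard error; adjusted p in limma = 0.140), with pairs at -0.16, -0.49 and -1.02. Its other probes gave -0.70 and -0.26. Without knockdown replicate 1 Sema6d was at -0.76, past the threshold with a limma adjusted p of 0.0381. The secreted class 3 semaphorins mostly act through neuropilins. Among them, Sema3c was at -0.53 (adjusted p in limma = 0.0987) and Sema3e at -0.29, whereas Sema3f was at 0.54 (adjusted p in limma = 0.258) and Sema3b at 0.30. Sema3a, the prototype repellent of this class, was at -0.02 with a 95% interval from -0.33 to 0.29. Sema3d and Sema3g were at 0.18 and -0.04, and Sema3g was well above background on 1 knockdown and 2 control arrays.

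In the transmembrane class 4 group, Sema4g was at -0.43 (adjusted p in limma = 0.146) with no overlap between the groups, and Sema4a, Sema4c and Sema4d were at -0.10, -0.08 and -0.10. Sema4f was above background on no array. Sema5b, Sema6a, Sema6b and Sema6c were at -0.16, -0.26, -0.03 and -0.15. The 95% interval stayed within a 2-fold change either way for 39 of the 48 tested members. The others were Sema7a, Robo2, Epha2, Plxnb3, Sema3d, Sema3f, Sema5a, Sema6d and Slit3, and for those a 2-fold change lay inside the interval.

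All 9 plexin genes in the RefSeq table and both neuropilins were tested. Of these 11, 0 passed in limma and 2 had an unadjusted p below 0.05, against 7.41% and 24.8% of all genes. Plxnb3, the receptor of Sema5a, had the largest value, a log2 fold change of 1.05 ± 0.40 (standard error; adjusted p in limma = 0.158). Its log2 signal was -3.58, -4.27 and -3.57 in knockdown arrays, against -5.10, -5.56 and -3.92 in control arrays. It was well above background on 3 knockdown arrays and on 1 control array, control replicate 3, whose value lay inside the knockdown range. It thus passed the filter on dim probes through the knockdown arrays. Without control replicate 3 the limma adjusted p was 0.0446, but neither remaining control array was well above background, so the size of the difference is not given. With normexp background correction Plxnb3 was at 0.20.

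The other plexins, which relay semaphorin signals into the cell, had smaller values. Plxna4 was at -0.37 ± 0.15 (standard error; adjusted p in limma = 0.179) and Plxnb1 at -0.29 ± 0.14 (standard error; adjusted p in limma = 0.242), both with no overlap between the groups. Plxnd1 was at 0.28, Plxna2 at 0.19, Plxna3 at -0.18, Plxna1 at -0.06 and Plxnb2 at 0.03. Plxna1 and Plxnb2 had pairs of both signs.

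Nrp2 encodes neuropilin-2, a co-receptor for class 3 semaphorins and VEGF-C that is made in membrane and soluble splice forms. Its probe with the highest mean was at 6.19, 6.23 and 6.10 in knockdown arrays, against 6.30, 6.32 and 6.11 in control arrays, a log2 fold change of -0.07 (95% interval -0.34 to 0.21; adjusted p in limma = 0.783). A second probe, A_52_P93910, listed under another RefSeq transcript of the gene, was at 2.84, 2.97 and 2.92 in knockdown arrays, against 3.65, 3.71 and 3.85 in control arrays. The groups were thus mixed at the first probe and apart at the second. With every probe tested on its own, the second probe fell by 0.83 ± 0.12 on the log2 scale (standard error; adjusted p in limma = 0.0397 over 31804 probes), and its adjusted p was 0.115 with the replicate block, an alternative added after the data were seen. Its adjusted p ran from 0.0652 to 0.153 when each array was left out in turn. The remaining Nrp2 probe was at -0.26. The sequences of the probes were not used here, and which Nrp2 splice forms each reads was not tested. Nrp1, the other neuropilin, was at -0.18, -0.26 and -0.19 over its 3 probes.

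Of the guidance genes, 17 had more than 1 probe above background, which gave 22 comparisons of another probe with the one used. The difference between probes was tested with a two-sided exact permutation test over the 6 arrays, in which p = 0.1 is the smallest value that 3 against 3 arrays allow. That value was reached in 4 comparisons, in Nrp2 (difference -0.76), Sema6c (1.03), Sema5b (0.62) and Nrp1 (-0.08), with a Benjamini-Hochberg value of 0.55 for each over the 22. In Sema6c the probe used was at -0.15 and the other at 0.89 (adjusted p in limma = 0.0625 over all probes). The other Sema6c probe read -3.44, -3.99 and -3.86 in knockdown arrays, against -4.55, -4.84 and -4.56 in control arrays, with no overlap. In Sema5b the 2 probes were at -0.16 and 0.46. The latter probe was dim, and well above background on 3 knockdown and 2 control arrays. With 3 against 3 arrays the permutation test could not pass, and no difference between probes is shown by it.

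**Figure D3:**
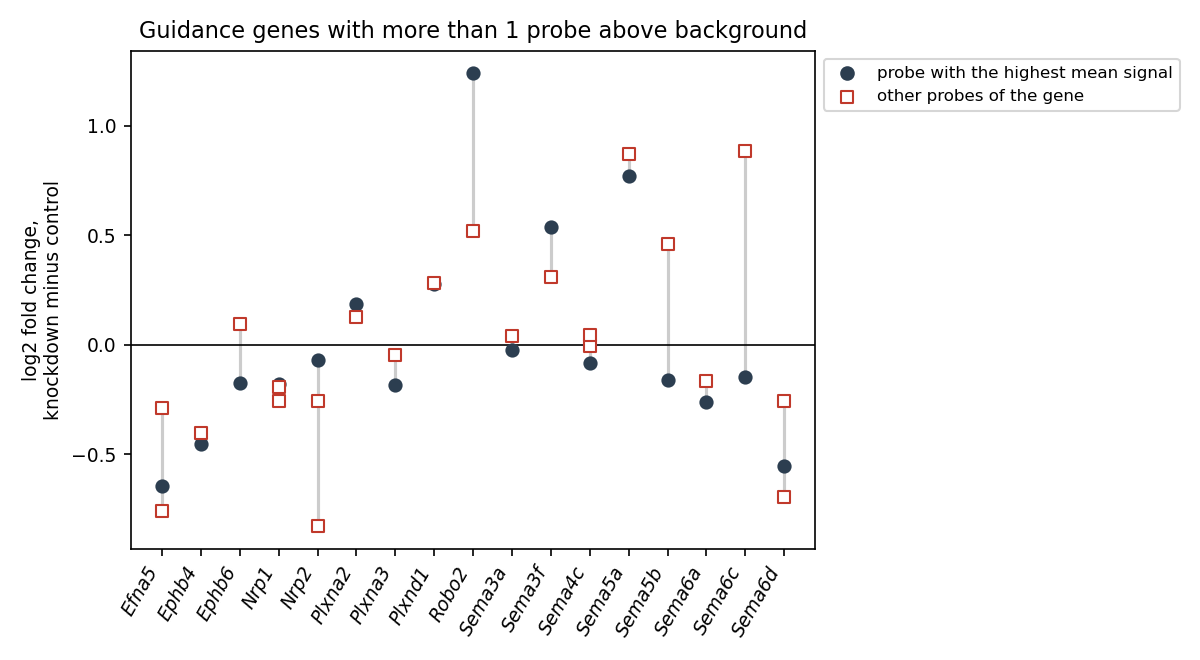
Log2 fold change (knockdown minus control, y axis) of every probe kept, for the 17 guidance genes with more than 1 such probe. Dark circles are the probe with the highest mean signal, used for the gene, and open squares are its other probes. The probes of Nrp2, Sema5b, Sema6c and Robo2 lie far apart, and those of Sema5a, Ephb4 and Plxnd1 close together.

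In the ephrin-A family 2 of 5 tested genes passed lower and 0 higher, against 2.84% and 4.57% of all genes. The family has only 5 genes, and its share was not tested. Efna5 encodes ephrin-A5, known for mapping retinal axons in the midbrain. Its log2 signal was 1.63, 1.66 and 1.61 in knockdown arrays, against 2.30, 2.13 and 2.42 in control arrays. The 3 knockdown arrays were tightly grouped below all control arrays. Efna5 fell to 63.8% of control (95% interval 52.5% to 77.7%; log2 fold change -0.65 ± 0.12, standard error; adjusted p in limma = 0.0258), or an adjusted p of 0.0640 with the replicate block. A second probe gave -0.76 and the remaining, dim one -0.29. The adjusted p was 0.0397 without knockdown replicate 1, 0.0633 without knockdown replicate 2, 0.0875 without knockdown replicate 3, and 0.0930, 0.0707 and 0.0636 without control replicates 1, 2 and 3.

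Efna1 encodes ephrin-A1, the main ligand of EphA2. It read -3.82, -3.73 and -3.85 in knockdown arrays, against -3.40, -3.10 and -3.22 in control arrays, with no overlap. Efna1 fell to 67.8% of control (95% interval 55.4% to 82.9%; log2 fold change -0.56 ± 0.13, standard error; adjusted p in limma = 0.0407), or an adjusted p of 0.0733 with the replicate block. Its log2 fold change was -0.27 with normexp (adjusted p in limma = 0.319), and the adjusted p was 0.0669 without knockdown replicate 1, 0.0830 without knockdown replicate 2, 0.124 without knockdown replicate 3, and 0.0801, 0.158 and 0.0899 without control replicates 1, 2 and 3.

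Efna1, Efna3 and Efna4 lie near each other on mouse chromosome 3, with 2 annotated genes between Efna1 and Efna3 and 2 between Efna3 and Efna4 in the RefSeq table. Efna4 read -0.94, -0.73 and -0.64 in knockdown arrays, against -1.16, -1.02 and -1.23 in control arrays, so its groups did not overlap and ran opposite to those of Efna1. The log2 fold change of Efna4 was 0.36 ± 0.13 (standard error; adjusted p in limma = 0.133), and that of Efna3 was -0.12 with a 95% interval from -0.57 to 0.33. The difference between these genes was not tested. Efna2 was at 0.05.

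Among the 3 transmembrane ephrin-B genes 0 passed in limma and 1 had an unadjusted p below 0.05, against 7.41% and 24.8% of all genes. Efnb2, the ligand of EphB4 and a marker of arteries, read 2.93, 2.79 and 2.62 in knockdown arrays, against 3.39, 3.23 and 3.10 in control arrays. The groups did not overlap and the pairs were at -0.47, -0.44 and -0.48, with a log2 fold change of -0.46 ± 0.14 (standard error; adjusted p in limma = 0.0850, or 0.0905 with the replicate block). Efnb1 and Efnb3 were at 0.13 and 0.09, with 95% intervals from -0.24 to 0.49 and from -0.20 to 0.38.

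Most Eph receptor genes of class A were not detected. Epha1, Epha3, Epha4, Epha5, Epha7, Epha8 and Epha10 were above background on 0 arrays, and 2 of 9 genes were tested. Epha2, a receptor kinase studied in glioma, read 1.97, 2.08 and 1.62 in knockdown arrays, against 2.66, 2.69 and 1.90 in control arrays. All 3 pairs were below 0 (-0.69, -0.62 and -0.27) but the groups overlapped, and the log2 fold change was -0.53 ± 0.24 (standard error; adjusted p in limma = 0.223, or 0.101 with the replicate block). Epha6 was at 0.49 ± 0.16 (standard error; adjusted p in limma = 0.104) on a dim probe, and at 0.05 with normexp.

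Of the class B receptors, Ephb1 was above background on 0 arrays. Among the 4 tested genes 0 passed in limma and 1 had an unadjusted p below 0.05, against 7.41% and 24.8% of all genes. Ephb4, the receptor of ephrin-B2, read 0.05, -0.04 and -0.45 in knockdown arrays, against 0.32, 0.31 and 0.29 in control arrays. Its log2 fold change was -0.45 ± 0.15 (standard error; adjusted p in limma = 0.116), with -0.40 at a second probe, and the groups did not overlap. Ephb6, which lacks kinase activity, was at -0.17. Ephb3 and Ephb2 were at -0.08 and -0.03, with 95% intervals from -0.34 to 0.18 and from -0.33 to 0.28.

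The 3 Slit genes, which encode the secreted ligands of Robo receptors, were all tested. Of these, 0 passed in limma and 0 had an unadjusted p below 0.05, against 7.41% and 24.8% of all genes. Slit3 read 0.55, -0.17 and -0.57 in knockdown arrays, against 0.79, 0.20 and 0.64 in control arrays. Its log2 fold change was -0.61 ± 0.29 (standard error; adjusted p in limma = 0.247), and without knockdown replicate 1 it was -0.92 and passed with an adjusted p of 0.0490. Slit2 was at 0.14 with pairs from -0.40 to 0.80, and Slit1 at 0.05.

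Robo2, a receptor for Slits in commissural axons and cortical progenitors, was the guidance gene that rose. It read -1.23, -2.11 and -1.61 in knockdown arrays, against -3.05, -3.13 and -2.48 in control arrays. The groups did not overlap and the pairs were at 1.82, 1.02 and 0.87. Robo2 was 2.36-fold higher (log2 fold change 1.24 ± 0.26, standard error; 95% interval 0.64 to 1.84; adjusted p in limma = 0.0341, or 0.0486 with the replicate block). The log2 fold change was 0.79 with normexp, and a second, dimmer probe gave 0.52. With the mean of both probes the adjusted p was 0.167, and with quantile normalization 0.0560. It was 0.104 without knockdown replicate 3, 0.128 without control replicate 1 and 0.119 without control replicate 2. Robo1, the other Robo gene tested, was at -0.02 with a 95% interval from -0.47 to 0.43, and Robo3 and Robo4 were above background on 0 arrays.

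**Figure D4:**
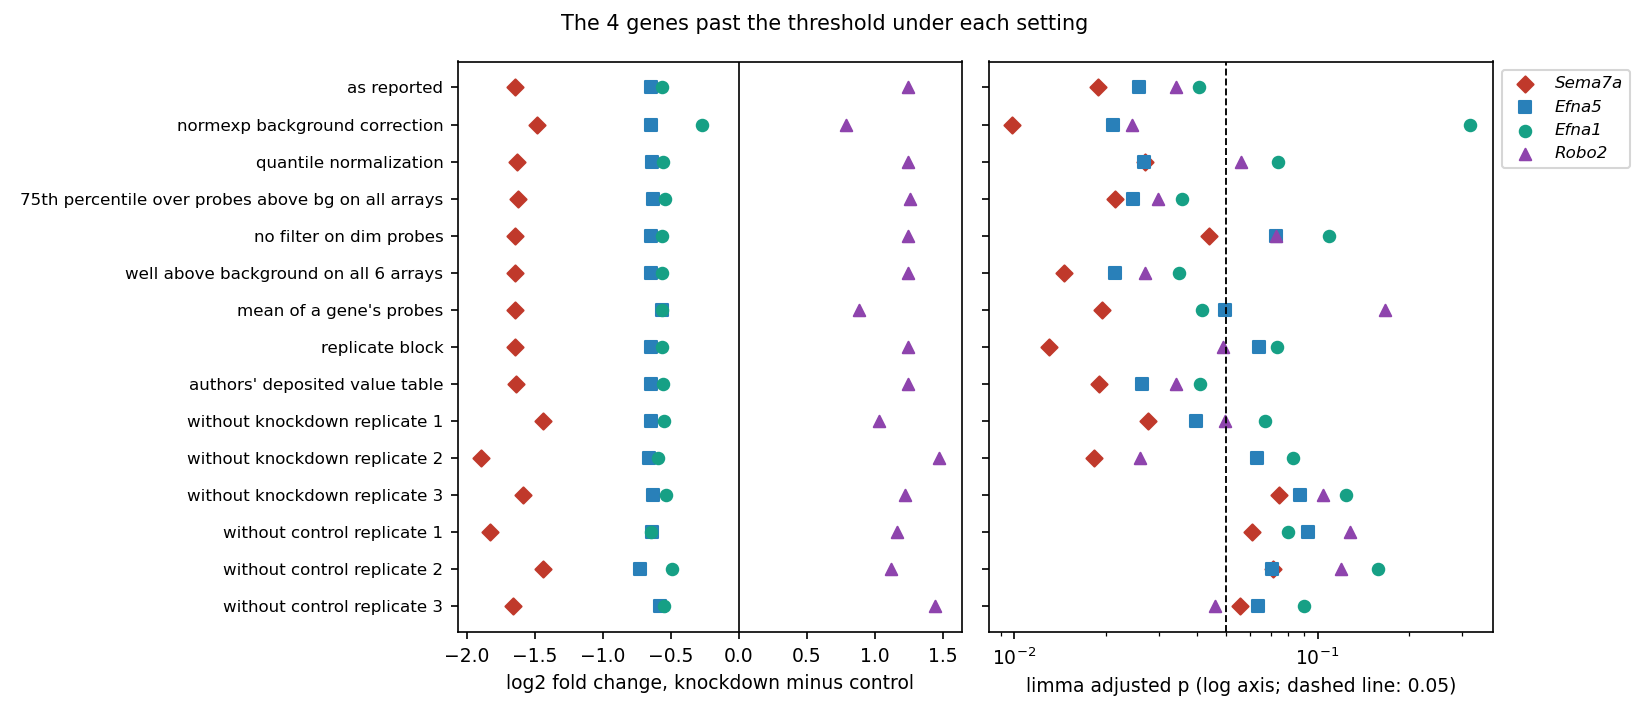
Log2 fold change (left, knockdown minus control) and limma adjusted p (right, log axis, dashed line at 0.05) of the 4 guidance genes past the threshold, as reported and under each other setting (rows). The sign of each gene is the same in every row, and the adjusted p of all 4 is above 0.05 without control replicate 1, control replicate 2 or knockdown replicate 3.

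The other genes of these pathways were taken as 4 lists of partners and effectors, 103 genes of which 82 were tested. Past the threshold, 2 were higher and 5 lower, or 8.54%, near the 7.41% of all genes, and the median log2 fold change was -0.07, against 0.02 over all genes. With the replicate block 2 were higher and 2 lower. With control replicate 1, control replicate 2 or knockdown replicate 3 left out, 0 passed, and the counts were 2 higher and 2 lower without knockdown replicate 2, and 1 higher and 3 lower without control replicate 3.

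Of 28 tested co-receptors and effectors of semaphorins, 1 rose and 5 fell, or 21.4% against 7.41% of all genes, with a median of -0.18, against 0.02 over all genes. The list was chosen with earlier results known and its share was not tested, and with the replicate block 3 of the 6 calls were left (Dpysl3, Arhgef12 and Fes). Rnd1, whose protein binds plexins, read -0.91, -0.21 and -0.42 in knockdown arrays, against 0.88, 0.87 and 0.20 in control arrays, with no overlap. Its log2 fold change was -1.16 ± 0.25 (standard error; adjusted p in limma = 0.0353, or 0.0672 with the replicate block), and its second probe gave -1.26. Dpysl3, which encodes the collapsin response mediator CRMP4, fell by 0.86 ± 0.13 on the log2 scale (standard error; adjusted p in limma = 0.0167), with -0.85 and -0.84 at its other probes. Arhgef12 and Arhgef11, whose proteins bind B-class plexins, were at -0.76 ± 0.13 and -0.58 ± 0.13 (standard error; adjusted p in limma = 0.0186 and 0.0450, or 0.0393 and 0.0737 with the replicate block). The probes of Arhgef12 disagreed in sign, with 0.21 at one of the others. Mical2, of the actin-oxidising MICAL family, was at -0.57 (adjusted p in limma = 0.0358, or 0.0688 with the replicate block), with -0.29 at its second probe. The rise was Fes, a tyrosine kinase that acts on CRMP proteins after Sema3a, at 0.96 ± 0.17 (standard error; adjusted p in limma = 0.0232). Fes read -3.61, -4.03 and -3.38 in knockdown arrays, against -4.60, -4.70 and -4.61 in control arrays, with no overlap. It was dim but well above background on every array. Its second probe gave 1.29.

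Of 27 tested effectors and sheddases of Eph receptors and ephrins, 1 rose and 0 fell, or 3.70% against 7.41% of all genes. Rgs3, whose PDZ form binds the tail of ephrin-B and damps chemokine receptor signals, read 3.86, 3.51 and 3.59 in knockdown arrays, against 2.79, 2.75 and 2.86 in control arrays, with no overlap. Its log2 fold change was 0.85 ± 0.13 (standard error; adjusted p in limma = 0.0157), and the other probes gave 0.49 to 1.06. None of the 8 tested genes of the netrin and RGM system passed in limma, with an unadjusted p below 0.05 in 2. None of the 19 tested partners of Slit and Robo passed, with an unadjusted p below 0.05 in 6. Over all genes 24.8% had such a p, and these counts were not tested against that share. Ntn4, a netrin of basement membranes, was at -2.11 ± 0.68 (standard error; adjusted p in limma = 0.105) with knockdown arrays at -7.50, -4.76 and -4.73, against -3.75, -3.39 and -3.54 in control arrays, and knockdown replicate 1, far below the others, was not well above background, so that the size of the difference is uncertain. Srgap1, which binds Robo receptors and turns off Cdc42, was at 1.55 ± 0.38 (standard error; adjusted p in limma = 0.0509), with 0.36 at its other probe. Control replicate 1, the lowest array of Srgap1, was not well above background. Both were named after their values were seen.

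**Figure D5:**
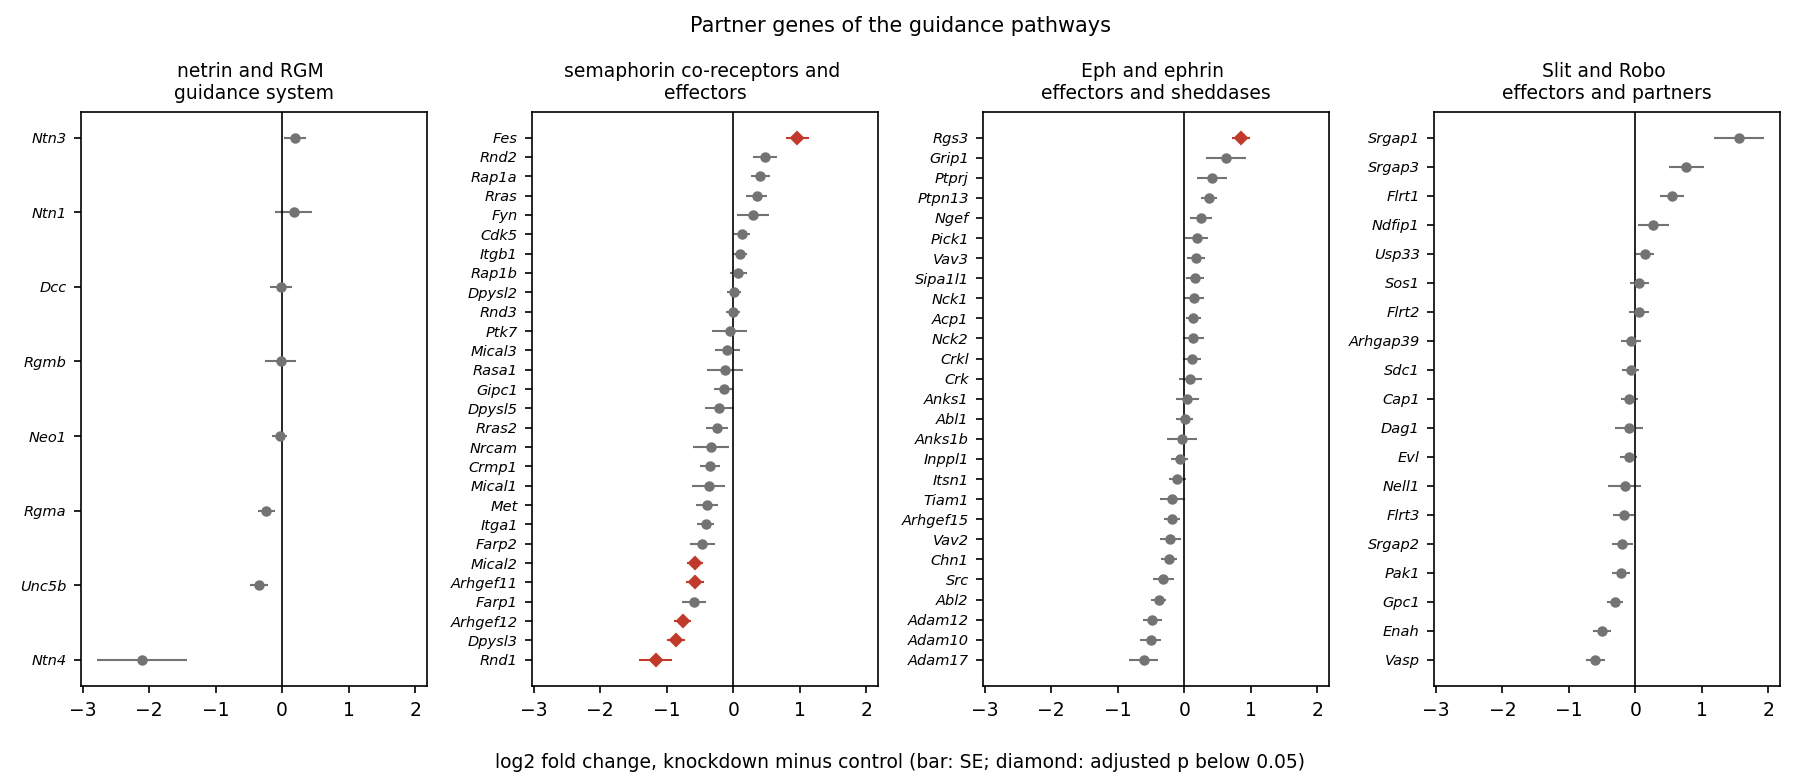
Log2 fold change (knockdown minus control, x axis, bars are SE) of the 82 tested partner genes in 4 lists, ordered within each list. Red diamonds mark the 7 genes past the threshold, 6 of them in the list of semaphorin co-receptors and effectors, with Fes above 0 and the other 5 below it.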

How the data were processed

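Total RNA of 3 knockdown and 3 control samples was hybridised as Cy3-labelled cRNA to one-colour Agilent arrays, per the labels' protocols. The deposited scanner files hold, per the file headers, intensity values from Agilent Feature Extraction 11.0.1.1 with the background already subtracted. The deposited value table holds log2 values that differed from log2 of these signals by 1 constant per array, within a tolerance of 0.01 at all compared probes, with column medians from -4.47 to -4.22, and it served as an alternative. The main values were log2 processed signals minus the 75th percentile of the array. Outlier spots were left out and spots of a probe averaged, which left out 12 probes with no usable spot on some array.

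Probes were named through a RefSeq gene table of assembly GRCm38.p6, used for names and gene order only (32986 probes named, 23607 unnamed). Probes well above background on at least 3 arrays (31804) were kept, and the probe with the highest mean stood for a gene. The comparison of knockdown and control used limma 3.58.1, under R 4.3.3 (lmFit and eBayes, two-sided, no block), with Benjamini-Hochberg adjustment over all 14151 genes. The fit was tested on simulated data. Python 3.11.15 made the summaries.

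The alternatives were normexp background correction (offset 50, on the median spot signal), quantile normalization, another scaling percentile, other filters, other uses of probes, the deposited table, the replicate block and each array left out. The date in the titles pairs the arrays. Within the pairs, the residuals around the means of the groups had correlations over genes of -0.02, 0.55 and -0.20. All 6 arrays shared 1 slide and 1 scan day. The members and gene lists were chosen with earlier results of these data known. The text names Ggct and every member past the threshold or above background on all arrays of only 1 group. It also names, in each family, the 2 largest changes among the rest. Every called gene of the partner lists is named, where up to 5 per list were planned. The remaining members are given by value.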

Additional observations from a re-analysis of the deposited data

How the results depend on the processing

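The 4 called members kept their direction under all 14 other settings run on genes. On genes, Sema7a lost the call only when single arrays were left out, Robo2 also with quantile normalization, with the mean of its probes and without a filter, Efna5 with the replicate block and without a filter, and Efna1 in addition with normexp and with quantile normalization. With every probe tested on its own, Sema7a passed (limma adjusted p = 0.0480), whereas Efna5 (0.0609), Efna1 (0.0859) and Robo2 (0.0707) did not, and the called guidance probes were those of Sema7a and Nrp2. The count of all genes past the threshold, 1048, was 357 without a filter on dim probes, 558 with the replicate block and 385 with every probe tested on its own. It ran from 14 to 840 with single arrays left out (14 without control replicate 1, 21 without knockdown replicate 3, 42 without control replicate 2), while 2581 to 3353 genes had an unadjusted p below 0.05, and the cause was not tested. Guidance genes past the threshold and higher (1) were 0 with quantile normalization, without a filter, with the mean of a gene's probes and with every probe on its own, and 0 to 2 with single arrays left out. Those lower (3) were 1 without a filter, 1 with the replicate block and 0 to 4 with single arrays left out. Partner genes higher (2) were 1 without a filter, with the mean of a gene's probes and with every probe on its own, and 0 to 3 with single arrays left out. Partner genes lower (5) were 1 without a filter, 3 with the mean of a gene's probes, 2 with the replicate block, 2 with every probe on its own and 0 to 5 with single arrays left out. Some members changed sign, none of them called. With normexp, Efna2 was at -0.096, Plxnc1 at -0.00051, Robo1 at 0.012 and Slit1 at -0.020. With the other percentile Robo1 was at 0.0041, and with the mean of the probes Sema3a was at 0.0085, Sema5b at 0.15 and Sema6c at 0.37 (adjusted p in limma = 0.0975). The kept probes of Sema5b (-0.16 and 0.46) and of Sema6c (-0.15 and 0.89) differed in sign. With single arrays left out the log2 fold changes ran over these ranges: Efna2 -0.17 to 0.28, Efna3 -0.32 to 0.018, Efnb1 -0.0026 to 0.24, Ephb2 -0.11 to 0.044, Plxna1 -0.24 to 0.14, Plxnb2 -0.093 to 0.14, Plxnc1 -0.11 to 0.35, Robo1 -0.23 to 0.094, Sema3a -0.13 to 0.032, Sema3d -0.18 to 0.58, Sema3g -0.23 to 0.069, Sema4d -0.41 to 0.17, Sema6b -0.23 to 0.12, Sema6c -0.37 to 0.027, Slit1 -0.073 to 0.16, Slit2 -0.25 to 0.42. The number of arrays limits the precision, and Plxnb3, Epha6 and Efna1, read near background, had smaller values with normexp.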
